A study of Arabidopsis thaliana with 8 samples.

Results

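The genes described here are 10 transcription factor genes of the ERF family of Arabidopsis thaliana that have been linked to wounding. The rule that picks them is a list of locus identifiers, drawn up with earlier results of these data known, and all 10 of them are on the array, as 10 of the 21500 genes it measures with 1 probe each. They are ERF-1 (AT4G17500, on chromosome 4), ERF2 (AT5G47220, chromosome 5), ERF4 (AT3G15210, chromosome 3), ERF5 (AT5G47230, chromosome 5), ERF6 (AT4G17490, chromosome 4), ERF11 (AT1G28370, chromosome 1), ERF13 (AT2G44840, chromosome 2), RRTF1 (AT4G34410, chromosome 4), ORA47 (AT1G74930, chromosome 1) and ORA59 (AT1G06160, chromosome 1). All 10 passed the filter on dim probes that left 19178 genes.

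The study asked what wounding of the root does to gene expression in the shoot. Seedlings of the Col-0 accession, 13 days old and grown on MS agar, had their primary roots wounded by razor blade at 5 mm below the shoot. The groups were shoots of root-wounded seedlings 30 min after wounding, shoots of root-wounded seedlings 360 min after wounding, and shoots of unwounded seedlings taken at each of these times as controls. At each time there were 2 biological replicates, and each replicate's wounded and unwounded RNA were hybridised together on a pair of 2-colour Agilent arrays with the dyes exchanged, which gave 8 arrays. Each dye pair was averaged and counted as 1 replicate, so a test rests on at most 2 replicates per time. Where a gene had a value in only 1 replicate, this is said beside it, and its p then assumes that the lone sample varies like the replicates of the other time.

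ERF proteins carry a single AP2/ERF DNA-binding domain, and many of them bind the GCC box, a short promoter element of defence genes. Some ERF proteins activate transcription, while others carry an EAR motif and repress it. In leaves the family is known for linking jasmonate, ethylene and stress kinases to defence and growth genes, and several members are transcribed within minutes of a stimulus.

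The share of probes well above background was between 70.7% and 95.9% in each channel of each array, and the number of arrays rather than a count of molecules limits the precision. The lowest correlation of log2 ratios between any pair of arrays of 1 time, with dyes turned the same way, was 0.69 at 30 min and 0.36 at 360 min across genes, which are not independent replicates. All 6 leaf markers on the array were well above background in all 16 channels, and of the 7 root markers on the array 3 were. None of the root markers that could be tested passed the test at either time, with log2 folds between -0.02 and 0.13 at 30 min and between -0.09 and 0.08 at 360 min. Of the leaf markers, RBCS1A, the small subunit of Rubisco, rose at 360 min by 0.26 on the log2 scale, and RCA, the Rubisco activase, fell by 0.29. Shoots are a mixture of cell types, and in them fewer cells of a type and less RNA per cell cannot be told apart.

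At 30 min 9 of the 10 ERF genes were higher in shoots of root-wounded seedlings than in shoots of unwounded ones, and none was lower. The 9 were ERF-1, ERF2, ERF13, RRTF1, ORA47, ERF11, ERF4, ORA59 and ERF5, with folds between 1.48 and 10.4, and ERF6 did not pass the test. Calls are limma's moderated test with Benjamini-Hochberg adjustment over all genes tested, at an adjusted p under 0.05. Over the whole array 4.52% of the 19177 genes tested were called higher at this time and 2.16% were called lower. The median log2 fold of the 10 genes was 1.21, beside a median of -0.0013 over all genes tested.

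**Figure D1:**
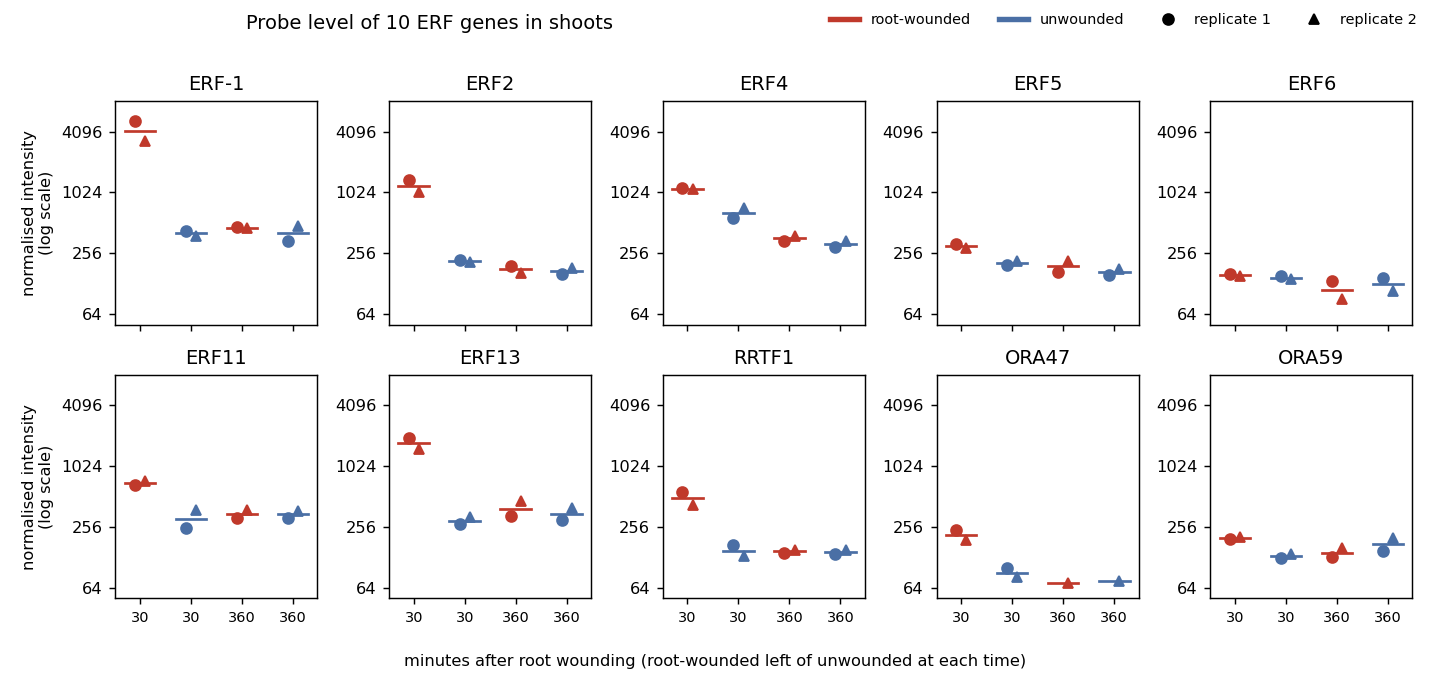
Normalised intensity (log scale) of each of the 10 ERF probes in shoots of root-wounded seedlings (red, left at each time) and unwounded seedlings (blue), at 30 and 360 min, with 1 point per biological replicate and a bar at the geometric mean. The intensities include the offset of 50 added at background correction. Only replicate 2 is drawn for ORA47 at 360 min. The wounded shoots of 30 min have the highest mean for all 10 genes after normalization between arrays. They lie far above the rest for ERF-1, ERF2 and ERF13, while all samples of ERF6 lie between 89.2 and 158 units.

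The largest folds were those of ERF-1, ERF13 and ERF2, GCC-box binding activators of ERF group IX, although on the authors' log ratios ORA47 was at 3.08 on the log2 scale, beside 3.06 for ERF2 and 2.98 for ERF13. ERF-1, also known as ERF1A, activates GCC-box genes in response to ethylene. Its normalised intensity at 30 min was 5183 and 3331 in the 2 replicates of wounded shoots, against 427 and 377 in the paired unwounded shoots. Both wounded samples lay far above both unwounded samples. The log2 ratio was 3.60 in replicate 1 and 3.14 in replicate 2, a 10.4-fold rise (log2 3.37 ± 0.32, SD, n = 2, adjusted p = 0.000286 in limma), which ranked 6 among the 19177 genes ordered from the highest fold.

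ERF2 is the closest relative of ERF-1 in this group and activates GCC-box and jasmonate-responsive defence genes. It had 1358 and 1022 units in wounded shoots at 30 min, against 217 and 210 units in unwounded shoots, and the groups did not overlap. Its log2 ratios of 2.64 and 2.28 gave a 5.52-fold rise (log2 2.46 ± 0.25, SD, n = 2, limma adjusted p = 0.000424). ERF13, another group IX factor that binds the GCC box, had 1952 and 1524 units in wounded shoots, against 273 and 319 units in unwounded shoots, again without overlap. Its fold was 5.84 (log2 2.55 ± 0.41, SD, n = 2, limma adjusted p = 0.00041). ERF13 and ERF2 ranked 18 and 20 of the 19177 genes.

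RRTF1, also known as ERF109, and ORA47 belong to other branches of the family. RRTF1 is known from responses to reactive oxygen species and promotes the synthesis of tryptophan-derived auxin. At 30 min RRTF1 had 568 and 425 units in wounded shoots, against 168 and 131 units in unwounded shoots. Its 2 replicates gave close ratios, 1.76 and 1.70 on the log2 scale, for a 3.32-fold rise (log2 1.73 ± 0.04, SD, n = 2, limma adjusted p = 2.33e-05). ORA47 is an activator of jasmonate synthesis genes that is itself induced by jasmonate.

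ORA47 had 236 and 188 units in wounded shoots at 30 min, against 99.2 and 81.9 units in unwounded shoots. Every wounded sample was above every unwounded one, but the unwounded signal was well above background on only 2 of 4 arrays, both of them of replicate 2. The rise was 2.33-fold (log2 1.22 ± 0.04, SD, n = 2, limma adjusted p = 0.00041). The SD covers the replicates only, since the size of the log2 fold lay between 0.74 and 3.08 over the alternative settings.

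ERF4 and ERF11 are group VIII repressors with an EAR motif, and both act against jasmonate, ethylene or abscisic acid responses. ERF11 had 669 and 737 units in wounded shoots at 30 min, against 251 and 378 units in unwounded shoots, with no overlap. The wounded samples were closer to each other than the unwounded ones. The rise was 2.28-fold (log2 1.19 ± 0.32, SD, n = 2, limma adjusted p = 0.00241). ERF4 had 1126 and 1096 units in wounded shoots, against 573 and 718 units in unwounded shoots. Its 1.73-fold rise (log2 0.79 ± 0.26, SD, n = 2, limma adjusted p = 0.00527) was smaller than that of ERF11.

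ORA59, ERF5 and ERF6 complete the group IX genes. ORA59 integrates the jasmonate and ethylene signals at the promoters of PDF1.2 and other defence genes. It had 196 and 203 units in wounded shoots at 30 min, against 126 and 137 units in unwounded shoots, a 1.52-fold rise (log2 0.61 ± 0.05, SD, n = 2, limma adjusted p = 0.00184). ERF5, a factor of the chitin and osmotic stress responses, had 316 and 288 units in wounded shoots, against 195 and 213 units in unwounded shoots. Its rise was 1.48-fold (log2 0.56 ± 0.18, SD, n = 2, limma adjusted p = 0.00971). Both calls rested on both replicates. Without replicate 1 of 30 min the adjusted p was 0.131 for ERF5 and 0.0731 for ORA59, and without replicate 2 it was 0.0545 and 0.062 in the same order of genes.

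ERF6, a substrate of the wound-responsive kinases MPK3 and MPK6, did not pass the test at 30 min. It had 158 and 153 units in wounded shoots, against 151 and 141 units in unwounded shoots. The difference was small on each array, with a log2 fold of 0.09 ± 0.04 (SD, n = 2, limma adjusted p = 0.476) and a 95% interval between -0.03 and 0.21. ERF6 lies next to ERF-1 on chromosome 4 with 0 protein-coding genes between them in the TAIR10.1 annotation, and ERF2 and ERF5 lie on chromosome 5 with 1 such gene between them. The neighbours thus had log2 folds of 0.09 and 3.37 in the first pair of genes, and of 2.46 and 0.56 in the other. Probe sequences were not used here, so that cross-hybridisation between similar family members was not tested.

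**Figure D2:**
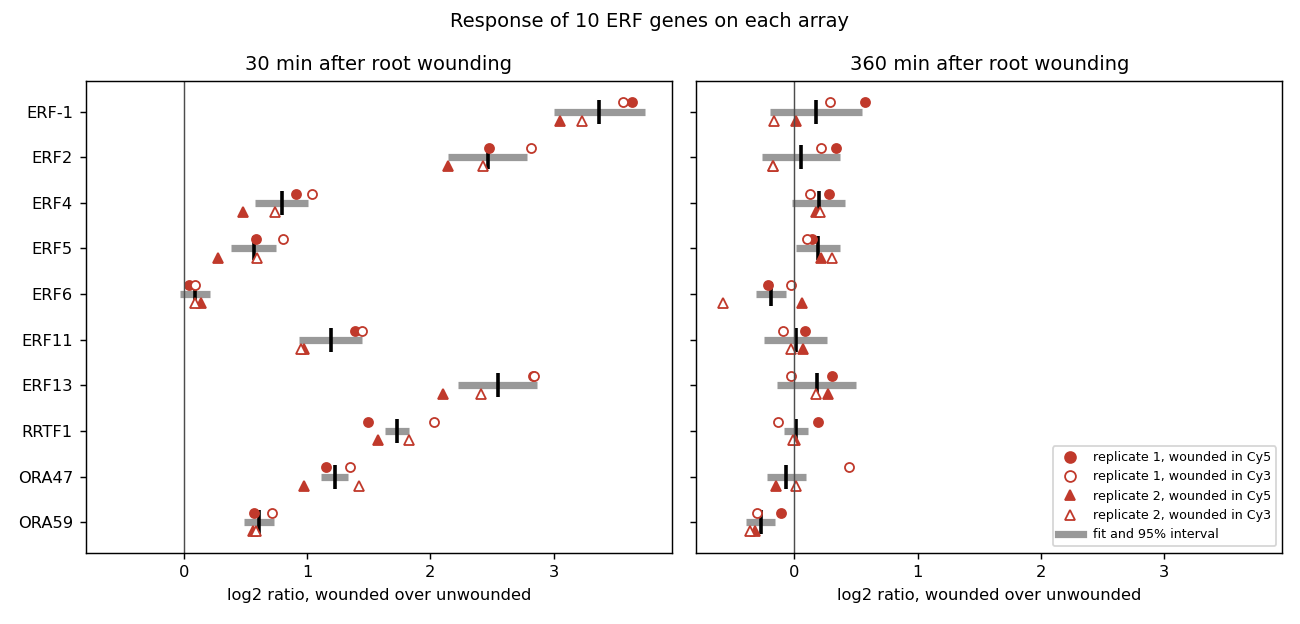
Log2 ratio of wounded over unwounded shoots on each array, for 30 min (left) and 360 min (right), with circles for replicate 1, triangles for replicate 2, filled markers where the wounded RNA carried Cy5 and open ones where it carried Cy3. Black ticks are the fitted folds and grey bars their 95% intervals. At 30 min all 10 genes lie above 0 on 4 of 4 arrays, from 0.09 for the fitted fold of ERF6 to 3.37 for that of ERF-1, and at 360 min the fitted folds lie between -0.27 and 0.20.

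At 30 min the dye orientation shifted the ratios by less than the response of the 9 genes. The ratio with the wounded RNA in Cy5 minus that with it in Cy3 was between -0.39 for RRTF1 and 0.0013 for ERF6, and it was below 0 for the 9 called genes. Those 9 genes were above 0 in both orientations.

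At 360 min 1 of the 10 genes passed the test. ORA59 was lower in wounded shoots, and the other 9 genes, those with the largest rise at 30 min among them, had log2 folds between -0.19 and 0.20 with adjusted p over 0.05. Over the whole array 3.08% of the 19146 genes tested were called higher at this time and 4.22% were called lower. A single call among 10 genes is near that background. The median log2 fold of the 10 genes was 0.03, beside a median of 0.0046 over all genes tested.

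ORA59 had 128 and 158 units in wounded shoots at 360 min, against 147 and 201 units in unwounded shoots. The ranges overlap because the replicates differed in level, but the wounded sample was the lower one within each pair. The log2 fold was -0.27 ± 0.09 (SD, n = 2, limma adjusted p = 0.0336). This call was lost in 12 of the 20 alternative settings, some of which repeat the same fit, with limma adjusted p up to 0.311. Among the 12 were those without replicate 2 of 360 min and without either replicate of 30 min.

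ERF-1 had 461 and 451 units in wounded shoots at 360 min, against 341 and 476 units in unwounded shoots. Its replicates went in opposite directions, with log2 ratios of 0.43 and -0.08, so that the fold of 0.18 ± 0.36 (SD, n = 2, limma adjusted p = 0.576) was within their spread. ERF2 showed the same split, with 191 and 163 units in wounded shoots and 157 and 184 units in unwounded shoots. Its log2 ratios were 0.28 and -0.17.

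ERF13 had 327 and 461 units in wounded shoots and 297 and 395 units in unwounded shoots at 360 min, and RRTF1 had 141 and 151 units in wounded shoots against 138 and 152 units in unwounded shoots. ERF11 had 313 and 374 units in wounded shoots and 314 and 369 units in unwounded shoots. In each of these genes the wounded and unwounded samples overlapped. Within the pairs ERF13 was higher in the wounded sample both times, with log2 ratios of 0.14 and 0.22. Its log2 fold of 0.18 ± 0.06 (SD, n = 2, limma adjusted p = 0.502) did not pass. For RRTF1 the 95% interval of the log2 fold ran from -0.08 to 0.11, the narrowest of the 10 genes at this time.

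ERF4 had 337 and 381 units in wounded shoots at 360 min and 293 and 334 units in unwounded shoots. ERF5 had 168 and 214 units in wounded shoots and 154 and 179 units in unwounded shoots. Both were higher in the wounded sample of each pair, by log2 folds of 0.20 and 0.19, and neither passed (limma adjusted p = 0.267 for ERF4 and 0.212 for ERF5). ERF6 had 135 and 89.2 units in wounded shoots and 147 and 107 units in unwounded shoots, a log2 fold of -0.19 (limma adjusted p = 0.0838).

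ORA47 could be fitted at 360 min from replicate 2 alone, because 1 spot of replicate 1 was marked as an outlier by the scanner software and left out. It had 70.3 units in wounded shoots and 73.6 units in unwounded shoots of that replicate, a log2 fold of -0.07, for which the limma adjusted p of 0.617 takes its spread from the replicates of 30 min. The remaining array of replicate 1, which was not used, had 161 units in wounded and 118.5 units in unwounded shoots (a log2 ratio of 0.44).

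**Figure D3:**
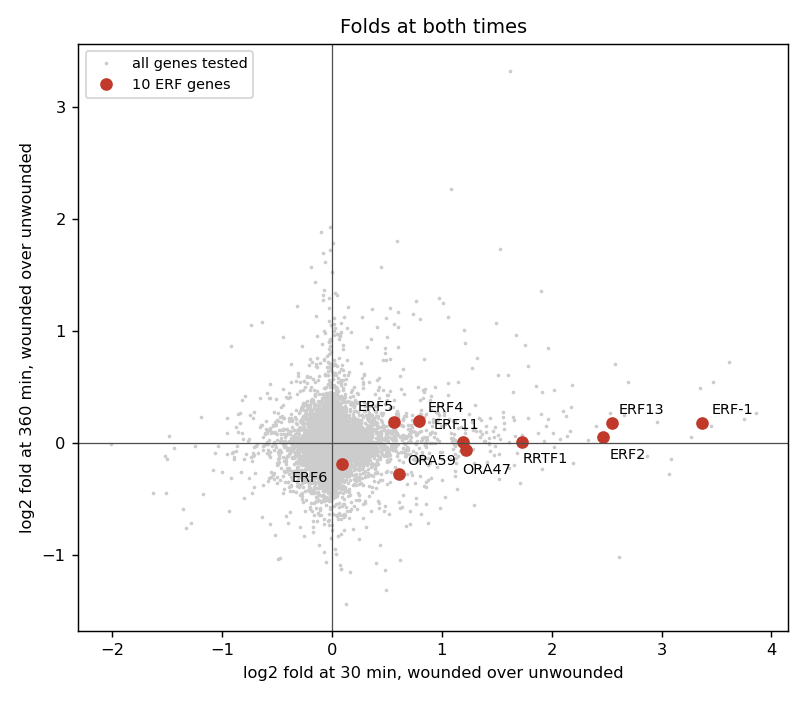
Log2 fold of wounded over unwounded shoots at 30 min (horizontal) and 360 min (vertical) for all genes tested (grey) and the 10 ERF genes (red). The ERF genes spread from 0.09 to 3.37 along the 30 min axis and between -0.27 and 0.20 along the 360 min axis.

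The difference between the times was itself tested, as the log2 fold at 360 min minus that at 30 min, and 8 of the 10 genes had a smaller fold at 360 min. Over the array 4.83% of 19145 genes were called lower in this difference and 2.56% were called higher. The difference was -3.20 for ERF-1 (limma adjusted p = 0.00187), -2.41 for ERF2 (0.00266) and -2.37 for ERF13 (0.00302). It was -1.72 for RRTF1 (limma adjusted p = 0.000213), -1.18 for ERF11 (0.0112) and -0.88 for ORA59 (0.00302). For ORA47 it was -1.29 and past the threshold, resting on 1 replicate at 360 min. All 7 also had a difference below 0 in the 95% interval's upper end, from -0.71 for ORA59 to -2.67 for ERF-1.

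ERF4 passed narrowly with a difference of -0.60 (limma adjusted p = 0.046), and it was called in 7 of 19 alternative settings. On the authors' log ratios its call was lost, as were those of ORA47 and ERF11 (limma adjusted p = 0.0647 for ERF11). ERF5, with -0.37 (limma adjusted p = 0.0994), and ERF6, with -0.28 (0.0744), did not pass, with 95% intervals from -0.63 to -0.12 and from -0.45 to -0.11. Without replicate 1 of 30 min the calls of ERF2 (adjusted p = 0.0539), ERF4 (0.114), ORA47 (0.0725) and ORA59 (0.0655) were lost, and 4 genes stayed past the threshold. Without replicate 2 of 30 min those of ORA47 (0.0702) and ORA59 (0.0593) were lost, and without replicate 1 or 2 of 360 min that of ERF4 (0.0625 and 0.0579). Without replicate 1 of 360 min ERF6 passed, with a difference of -0.35.

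The channels were also compared across the times on their own, to see in which shoots the level differed. Here the time and the array cannot be told apart, since each time has its own arrays, and the values depend on the normalization between arrays. In wounded shoots 7 of the 10 genes had a lower level at 360 min than at 30 min, where 3.46% of 19145 genes were called lower and 2.39% higher. The log2 differences were -3.19 for ERF-1, -2.74 for ERF2, -2.15 for ERF13, -1.75 for RRTF1, -1.63 for ERF4, -1.58 for ORA47 and -1.04 for ERF11. ERF5, ERF6 and ORA59, with -0.67, -0.50 and -0.49, did not pass. The value of ORA47 rests on 1 replicate at 360 min, and with outlier spots kept, an alternative chosen after seeing the data, it was -0.76 (limma adjusted p = 0.366). The call of ERF11 was lost without replicate 1 (limma adjusted p = 0.313) or replicate 2 (0.0601) of 360 min.

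In this fit of the wounded channel limma gave its prior 573 degrees of freedom, so nearly all genes were given the same spread and the adjusted p of 8.97e-29 for ERF-1 does not measure the spread of that gene's own replicates. In a fit of all 4 conditions with the array pair as a random block, the adjusted p was 0.00728 for ERF-1, 0.00713 for ERF2 and 0.00124 for RRTF1, and the call of ERF11 was lost (0.25). Without normalization between arrays 3 of the 7 calls were left, those of ERF-1, ERF2 and ERF13.

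In unwounded shoots 1 of the 10 genes differed between the times, where 1.39% of 19145 genes were called lower at 360 min and 1.33% higher. ERF4 had 293 and 334 units at 360 min and 573 and 718 units at 30 min, a log2 difference of -1.03 (limma adjusted p = 0.0178). Both later samples lay below both earlier ones. This call was lost in 5 of 9 alternative settings, among them those without replicate 1 or replicate 2 of 360 min, and without normalization between arrays the difference was 0.05. On these normalised levels ERF4 in wounded shoots at 360 min was below unwounded shoots at 30 min (337 and 381 units against 573 and 718 units). That order rests on the normalization between arrays. Without it the difference between the times in wounded shoots was -0.54 and was not called.

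The other 9 genes had differences between -0.33 and 0.39 in unwounded shoots. ERF-1 had 341 and 476 units at 360 min and 427 and 377 units at 30 min, and the groups overlapped. ORA59, at 0.39 (limma adjusted p = 0.558), had 147 and 201 units at 360 min and 126 and 137 units at 30 min.

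Ordered by level after normalization between arrays, the wounded shoots of 30 min came first for all 10 genes. The order across times rests on that normalization, since each time has its own arrays. Without it the wounded shoots of 360 min lay above those of 30 min for ERF5, ERF6 and ORA59, by log2 differences of 0.31, 0.29 and 0.42. For 9 of the 10 genes both replicates of the wounded shoots of 30 min lay above both replicates of the next condition. For ORA59 they overlapped with the unwounded shoots of 360 min. ERF6 is among the 9 with a gap of only 153 against 151 units. The share of all genes with such a gap was not computed, so the count of 9 is a description only. For ERF-1, ERF5, ERF6, ERF11, ERF13 and RRTF1 the remaining 3 conditions could not be put in order, since neighbours in it overlapped. On these normalised levels the 4 conditions of ERF4 were separate. Their order was wounded and unwounded shoots of 30 min, then wounded and unwounded shoots of 360 min, and it too depends on the normalization between arrays. For ERF2 the unwounded shoots of 30 min also lay above both conditions of 360 min. ORA47 showed the same only for the 1 replicate used at 360 min. The unused array of replicate 1 had 161 units in wounded and 118.5 units in unwounded shoots. Both are above the dye pair means of 99.2 and 81.9 units in unwounded shoots at 30 min. On single arrays the unwounded level at 30 min reached 120.8 units, in replicate 1 with the wounded RNA in Cy5.

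Over the 4 replicate ratios, the pairs of members closest to each other, ORA47 left out for its missing replicate, were ERF4 and ERF5, with a Euclidean distance of 0.35 on the log2 scale, and ERF2 and ERF13, with 0.46. The same distance was taken from each called member to 17435 other genes with all 4 replicate log2 ratios, as a description of pattern only. The 3 nearest to ERF-1 were JAZ6 (distance 0.22, with a log2 fold of 3.45 at 30 min), TIFY7 (0.56) and LOX3 (0.64), which encode a jasmonate repressor, another repressor of that family and a lipoxygenase of jasmonate synthesis. RRTF1 was nearest to CAF1b (0.20), a deadenylase subunit, to LOX4 (0.22), another lipoxygenase, and to AT5G05600 (0.24).

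ERF2 was nearest to AT2G42760 (0.35), IAR3 (0.45), an amidohydrolase of hormone conjugates, and CYP96A4 (0.53), and ERF13 to MYB95 (0.34), AT2G42760 (0.41) and CYP96A4 (0.52). The lists of ERF2 and ERF13 thus hold AT2G42760 and CYP96A4 in common. ERF4 was nearest to RD26 (0.14), a NAC factor of drought and abscisic acid responses, GILP (0.17) and AT1G50740 (0.19). ERF11 was nearest to AT4G08170 (0.08), to the NAC factor ATAF2 (0.17) and to VTC5 (0.18), an enzyme of ascorbate synthesis.

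ERF5 was nearest to AT3G47080 (0.15), AT1G19020 (0.15) and AT1G72920 (0.15). ORA59 was nearest to the receptor kinase gene PERK1 (0.11), the peptide gene RALFL33 (0.12) and AT4G25030 (0.15). Each of these had a log2 fold between -0.30 and -0.26 at 360 min, which follows from a distance that takes in the 360 min ratios.

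The rest of the listed ERF family was compared by its counts. Of 40 other ERF genes on the array 28 could be tested, and at 30 min 7 of them rose and 1 fell. Their median log2 fold was 0.09. Of all genes tested, 4.52% were called higher and 2.16% lower at this time. In group IX, 2 of 7 rose and 1 fell. ERF105 rose by 0.50 on the log2 scale (limma adjusted p = 0.00529) and ERF1, an activator of the ethylene and jasmonate defence branch, by 0.22 (0.0259), while ERF107 fell by 1.28 (0.00319). Among the other repressors of group VIII, ERF3 rose by 0.36 (limma adjusted p = 0.0179) and was the 1 call of 6 genes tested.

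In group II, the DREB-like branch, 4 of 8 rose and none fell. They were DEAR3 (log2 fold 1.14, limma adjusted p = 0.00154), CEJ1 (0.84, 0.00186), RAP2.10 (0.58, 0.0232) and DREB26 (0.27, 0.0135). None of 3 other group X genes and none of 4 group VII genes, known from low-oxygen responses, passed at 30 min. These counts lean on both replicates of 30 min. Without replicate 1 the calls in groups IX, VIII and II numbered 0, 0 and 0, and without replicate 2 they numbered 1, 0 and 0.

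At 360 min 1 of the 28 other ERF genes was called higher and 2 were called lower, near the 3.08% and 4.22% of all genes. ERF105 was higher by 0.39 in the 1 replicate that could be used, with its spread taken from 30 min, ERF107 fell by 0.72 (limma adjusted p = 0.0297), and DREB26 fell by 0.31 (0.0144). In the difference between the times DREB26 (-0.58), CEJ1 (-0.86) and DEAR3 (-1.13) were lower, 3 of the 28, beside 4.83% of all genes. On levels normalised between arrays, wounded shoots differed by -0.66, -1.24 and -0.01 (360 minus 30 min) in the same order of genes. Unwounded shoots differed by -0.08, -0.38 and 1.12, and among these 3 differences only that of DEAR3 was called (limma adjusted p = 0.00855).

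**Figure D4:**
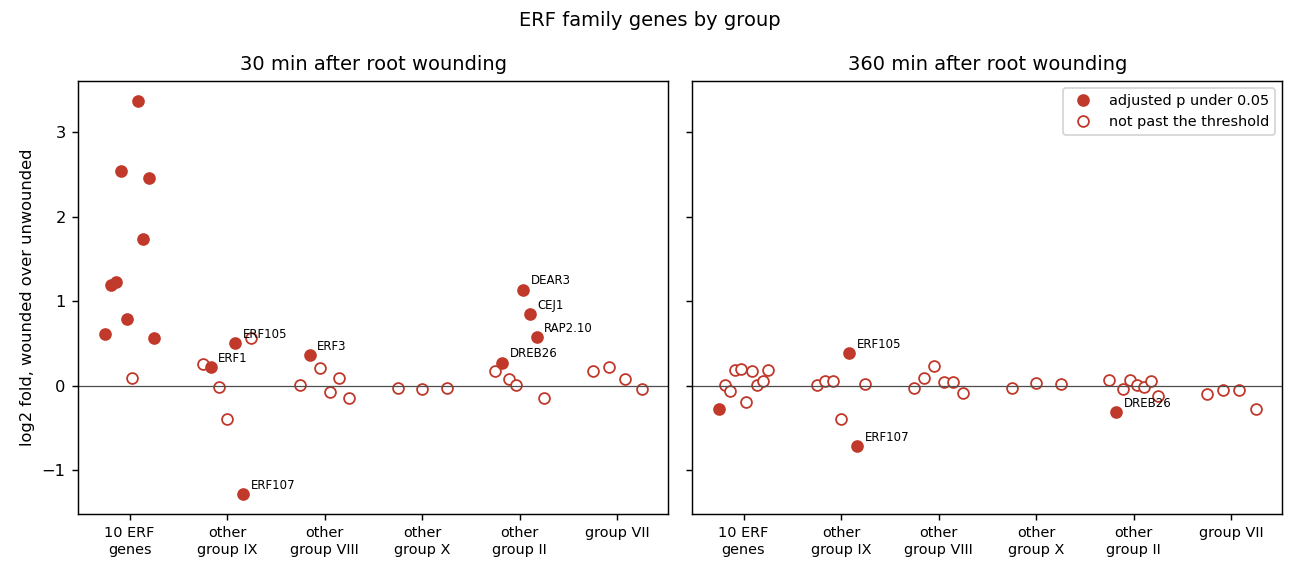
Log2 fold of wounded over unwounded shoots at 30 min (left) and 360 min (right) for the 10 ERF genes and the other listed ERF genes by group, 1 circle per gene, filled where the adjusted p was under 0.05. At 30 min the filled circles of the other groups lie between -1.28 for ERF107 and 1.14 for DEAR3, and those of the 10 genes reach 3.37.

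Genes known to lie downstream or upstream of these factors were listed as well. The 7 defence genes with GCC boxes, such as PR4, did not pass at 30 min, with log2 folds between -0.17 and 0.05. At 360 min PR4 fell by 0.42 (limma adjusted p = 0.0208) and the other 6 did not pass. That call was lost without replicate 1 of 360 min and without either replicate of 30 min.

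Of 6 genes reported as targets of ORA47 or RRTF1, 5 rose at 30 min, where 4.52% of all genes tested were called higher. They were the jasmonate synthesis genes OPR3 (log2 fold 3.86 ± 0.23, SD, n = 2), LOX3 (3.27 ± 0.20), AOS (1.96 ± 0.05) and AOC2 (0.86 ± 0.15), and ASA1 (1.13 ± 0.07), an enzyme of tryptophan synthesis, with limma adjusted p between 1.99e-05 and 0.00289. The remaining gene, YUC2, did not pass at 30 min (log2 fold -0.03, limma adjusted p = 0.854). At 360 min only AOS of these 6 was called higher, by 0.85 (limma adjusted p = 0.00199). The difference between the times was below 0 and past the threshold for all 5 that rose, beside 4.83% of all genes.

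Among 12 tested genes of ethylene, jasmonate and kinase signalling, 4 were called higher, 1 of them (MPK3) on 1 replicate, and 1 fell at 30 min. Of all genes tested, 4.52% were called higher and 2.16% lower at this time. MYC2, the main activator of jasmonate responses, rose by 3.62 (limma adjusted p = 1.82e-05), and ACS6, an enzyme of ethylene synthesis, by 0.77 (0.00134). The ethylene activator EIL1 fell by 0.48 (limma adjusted p = 0.00337), and MPK3, a wound-responsive kinase, was higher by 0.66 (0.00562) in the 1 replicate that could be used, with its spread taken from 360 min. The fourth gene called higher was EBF1, an F-box protein of ethylene signalling, by 0.48 (limma adjusted p = 0.0128).

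At 360 min MYC2 was higher by 0.72 (limma adjusted p = 0.00802) and MPK3 by 0.24 (0.0404). Where the arrays of 360 min were fitted alone 1 of these 12 genes was called.

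The size of the folds at 30 min depended on the processing. With a normexp offset of 10 in place of 50, the log2 fold was 2.18 for ORA47, 2.29 for RRTF1, 0.98 for ORA59 and 0.77 for ERF5. On the authors' log ratios, which differ in both background subtraction and dye normalization, the log2 fold was 3.08 for ORA47, 2.57 for RRTF1, 1.21 for ORA59 and 0.87 for ERF5, and without background correction it was 0.74, 1.28, 0.38 and 0.41 in the same order of genes. The corresponding values for ERF-1 were 3.68 and 3.06. The 9 genes stayed past the threshold in both of these settings.

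**Figure D5:**
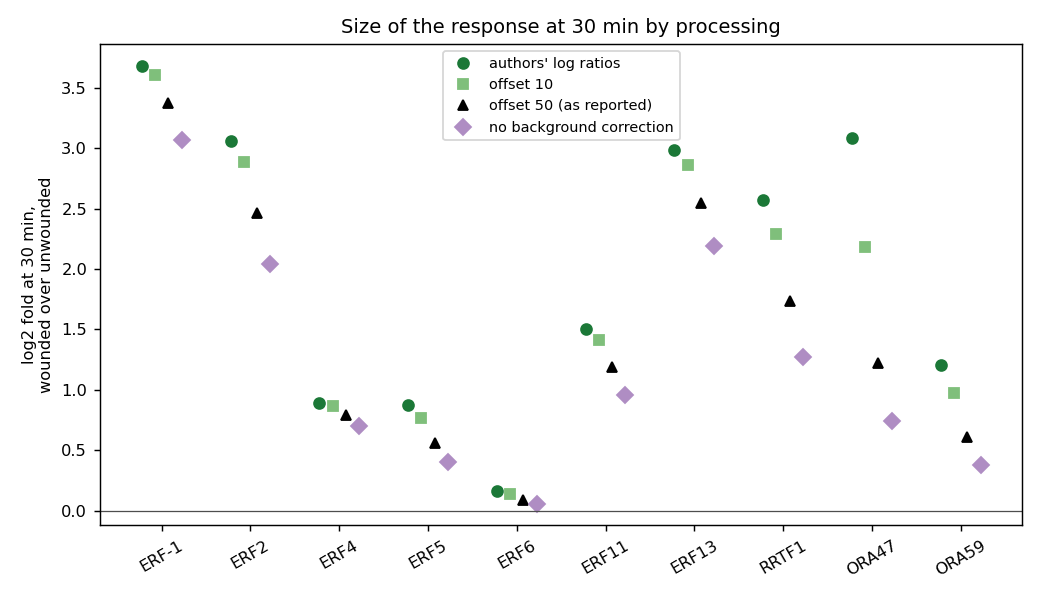
Log2 fold at 30 min of the 10 ERF genes on the authors' log ratios (circles), with a normexp offset of 10 (squares), with the offset of 50 used for the reported values (triangles) and without background correction (diamonds). The fold of ORA47 ranges from 0.74 to 3.08 over these settings and that of ERF4 from 0.70 to 0.89.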

How the data were processed

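Labelled cRNA from 400 ng of total RNA per sample was hybridised to 8 arrays with 22575 spots each, of which 1075 were control spots. Per the submitters' processing notes, the image software was Agilent Feature Extraction, version 7.1.1. Deposited scanner files give mean and local background intensity on a linear scale without normalization. They also give a log10 ratio of red over green, background-subtracted and dye-normalized per the file headers, and flags for outlier spots and for signals well above background. The deposited value table holds log10 ratios too, and they differed from the scanner files' ratio by 0 at most on every array. The column medians of the matrix's log10 ratios were 0 on 6 arrays, -0.00407 on 1 and -0.000912 on 1. A genome build is not given in the sources used here. Neither coordinates nor sequences are printed.

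From the deposited intensity, log2 ratios of wounded over unwounded shoots were made in R 4.3.3 with limma 3.58.1: normexp background correction with an offset of 50, loess within each array, control and outlier spots left out, and dye-swapped arrays averaged. The scaling offset compresses folds of dim probes. Both times were fitted together with lmFit and eBayes (residual degrees of freedom 2, prior 3.58). Levels are the channels after Aquantile normalization between arrays. They include the offset of 50, so the units of dim probes such as ORA47 and ERF6 overstate their signal over background. Genes were kept where a channel was well above background on all 4 arrays of at least 1 condition, and all 4 replicate values existed for 17444. Of the array's loci 98.6% were found in the TAIR10.1 gene table, which was used for symbols and gene order only.

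The 10 genes and the 10 lists beside them, with 82 genes of which 79 are on the array, were chosen with earlier results of these data known. Named are all 10 genes in each comparison, up to 4 called genes of each list, taken by adjusted p, and the 3 nearest genes of each member called at 30 min that had all 4 replicates. One result that the rule covers is not reported here. EBF1, AOC2 and YUC2 were named after their values were seen. A gene's limma p-value draws on the variance of its own replicates, which the labels call biological, and on a prior shared by all genes. That prior had 3.58 degrees of freedom beside 2 residual ones for the log2 ratios, and 573 in the wounded channel. The steps were tested on simulated data. The alternatives, given in the closing section, changed the background correction, normalization, filter, flags, dye orientation, model and replicates.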

Additional observations from a re-analysis of the deposited data

Results flagged for a closer look

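The fold of wounded over unwounded shoots differed between 360 and 30 min, by a test of the difference itself, for 8 of the 10 ERF genes. The difference of log2 folds, 360 minus 30 min, was -3.20 for ERF-1, -2.41 for ERF2, -0.60 for ERF4 and -1.18 for ERF11. It was -2.37 for ERF13, -1.72 for RRTF1, -1.29 for ORA47 and -0.88 for ORA59. Limma adjusted p lay between 0.000213 and 0.046. The value of ORA47 rests on 1 replicate at 360 min.

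Single arrays stood apart from the other 3 of their condition in 3 of 57 sets of 4 arrays, by Dixon's test on the gap to the nearest value over the range. Chance flags about 1 in 20 such sets, and the 4 arrays of a set are 2 dye pairs, not 4 replicates. ERF2 in wounded shoots at 360 min had 225 units on the array of replicate 1 with the wounded RNA in Cy5, while the others lay between 161 and 163. In unwounded shoots at 360 min ERF2 had 139 units on the other array of that pair, while the others lay between 178 and 184. ERF6 in unwounded shoots at 360 min had 220 units on the array of replicate 1 with the wounded RNA in Cy5, while the others lay between 98 and 112.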

How the results depend on the processing

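Over 763 values of single ERF genes under alternative settings, 702 kept their side of the threshold, 49 lost the call, 8 gained it, 3 uncalled values changed sign by more than the replicates' SD and 1 called value reversed. The sign changed in 28 of the 763, of which 24 were among the 702 and uncalled. That SD was at hand only for folds at 30 and 360 min of genes with both replicates. Other uncalled sign changes, those of the channel levels among them, were not set against a spread. The settings are not all separate checks, since the scanner and matrix ratios were identical. At each time, leaving out a replicate of the other time also gave the same count over all genes as fitting the time alone. The count of 9 genes called at 30 min was 7 without either replicate of that time and 8 under the strict filter, which leaves out ORA47, and it was within 1.5 times of 9 in every setting run. The count of 1 at 360 min was 0 with a normexp offset of 10, on the authors' log ratios of the scanner files and of the series matrix, with median centring, with scale normalization between arrays, with outlier spots kept, with arrays of either dye orientation alone and with each time fitted alone. With a replicate left out it ranged from 0 to 1. The count of 8 for the difference between the times was 5 on the authors' log ratios from either source, and it ranged from 4 to 8 with a replicate left out. In unwounded shoots the count of 1 was 4, all higher at 360 min, without normalization between arrays, where ERF4 reversed to 0.0543, and 0 with outlier spots kept (an alternative chosen after seeing the data) or with all conditions in 1 fit, and it ranged from 0 to 1 with a replicate left out. In wounded shoots the count of 7 was 3 without normalization between arrays and 6 with outlier spots kept or with all conditions in 1 fit, and it ranged from 5 to 8 with a replicate left out, ORA47 having no value without replicate 2 of 360 min. The cause of these changes was not tested. The counts over all genes moved more. At 30 min 1282 genes were called, against 2096 with the pair as a random block, 1988 with a dye term added, 779 with the wounded RNA in Cy3 alone and 304 to 309 without a replicate of that time. At 360 min 1398 were called, against 710 with the offset of 10, 130 on the authors' ratios, 662 with scale normalization, 2856 and 2672 with the random block, without and with a dye term, 2353 and 190 with the wounded RNA in Cy5 or Cy3 alone and 79 with that time fitted alone. For the difference 1414 were called, against 716 on the authors' ratios, 2929 and 2675 with the random block, 502 with Cy3 alone and 169 to 176 without a replicate of 30 min. Across the times in unwounded shoots 520 were called, against 8342 without normalization between arrays, 315 with outlier spots kept, 165 with all conditions in 1 fit, 956 with the replicate block and 220 to 2333 without a replicate. In wounded shoots 1120 were called, against 7927, 431 with all conditions in 1 fit and 421 to 2602 without a replicate. The replicate numbers are shared by the times, but same-numbered deviations of the log2 ratios had a correlation of -0.03 across genes. The numbers thus show no pairing in the ratios. An effect common to both channels cancels in a ratio, so pairing of the channel levels was not tested by this. With the replicate block the 5 counts of ERF genes stayed at 9, 1, 8, 1 and 7. A block for slide or scan was not run, as no batch in the files held over 1 array pair. Signal over background limits ORA47 and the other dim probes.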
